A study of Mus musculus with 4 samples.

Results

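Cells with B cell transcripts were present among the cardiac cells sorted on a Csf1r reporter, before and after infarction. Of 41533 cells kept from 4 libraries (500 to 40000 UMIs, or distinct counted RNA molecules, and over 200 genes detected), 337 carried at least 1 UMI of 2 or more of the 5 B lineage genes Cd79a, Ms4a1, Ebf1, Ly6d and Ighd. The members were thus chosen by the counts of these 5 genes. These 337 cells are called the B cell set here, and the other 41196 cells the remainder. The cells came from CSF1R-EGFP (MacGreen) mice of 12 to 16 weeks, in which EGFP is driven by the Csf1r promoter, and were sorted as EGFP+ and Ly6G-. The Baseline 1 library pooled 3 control hearts without coronary occlusion. Infarct 1, Infarct 2 and Infarct 3 each held the cells of 1 heart taken after 7 days of left coronary occlusion, with the remote, non-infarcted myocardium left out. Each library was read by droplet-based 3' single-cell RNA sequencing, and EGFP itself was not among the genes counted, so reporter RNA could not be followed in any cell.

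The genes of the rule mark successive layers of B cell identity. Ebf1 is a transcription factor that commits progenitors to the B lineage, Cd79a is a signalling chain of the B cell receptor, Ms4a1 encodes CD20, Ighd encodes the heavy chain of IgD, which mature naive B cells carry on their surface beside IgM, and Ly6d is a surface protein found on B lineage cells and on some dendritic cell precursors. A B cell displays a single rearranged antibody as its receptor, made of a heavy chain and a kappa or lambda light chain, and presents antigen on MHC class II. Hearts hold resident and circulating B cells, while Csf1r, the receptor for colony-stimulating factor 1, is the classical receptor of macrophages and monocytes.

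Marker genes fell into an all-or-few pattern that set the cells apart. Cd79a (ENSMUSG00000003379) lies at chr7:24897381-24902197 on the plus strand of GRCm38, Ms4a1 (ENSMUSG00000024673) at chr19:11249675-11266241 on the minus strand, Ebf1 (ENSMUSG00000057098) at chr11:44617317-45008091 on the plus strand, Ly6d (ENSMUSG00000034634) at chr15:74762056-74763620 on the minus strand and Ighd (ENSMUSG00000104213) at chr12:113406604-113416324 on the minus strand, so the markers come from 5 chromosomes. In Baseline 1, 346 cells had 1 marker, 9 had 2, 4 had 3, 36 had 4 and 75 had all 5. In Infarct 1 those counts were 195, 7, 4, 21 and 30. In Infarct 2 they were 173, 7, 4, 12 and 17, and in Infarct 3 they were 228, 8, 5, 31 and 67. Every library thus had a low point at 2 and 3 markers, just inside the rule, and most members carried 4 or 5.

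**Figure D1:**
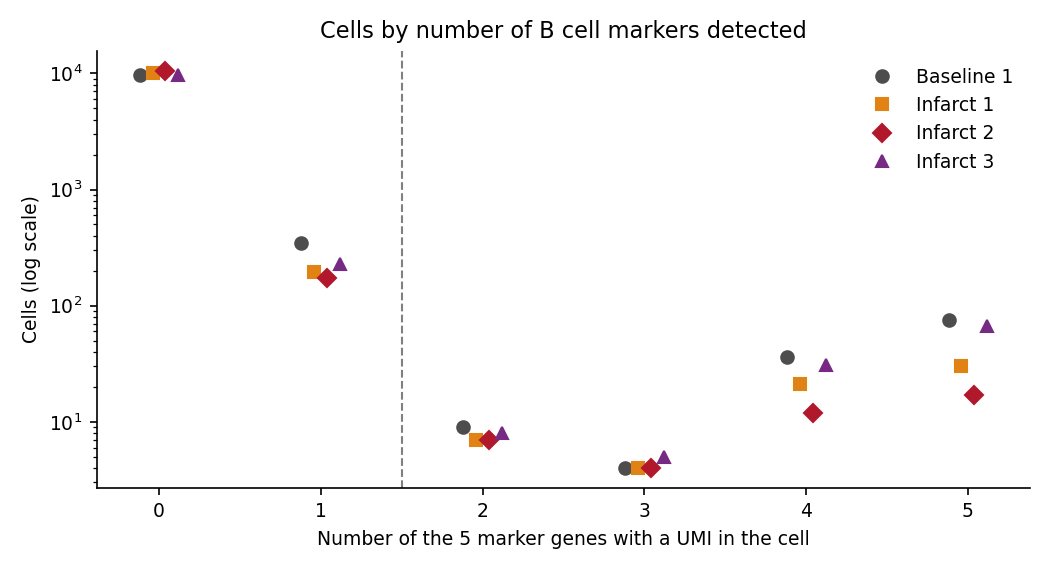
Number of cells (log axis) with a UMI of 0 to 5 of the genes Cd79a, Ms4a1, Ebf1, Ly6d and Ighd in each of the 4 libraries; the dashed line separates the B cell set, at 2 or more, from the remainder. In every library the counts dip at 2 and 3 genes and rise again, to 75 cells with all 5 in Baseline 1 and 30, 17 and 67 in the infarct libraries.

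Members were split by the complement genes C1qa, C1qb and C1qc, which cardiac macrophages express strongly, at a summed level of 30 UMIs per 10000. Baseline 1 had 95 members below this level (C1q-low) and 29 at or above it (C1q-high). Infarct 1 had 30 and 32, Infarct 2 had 17 and 23, and Infarct 3 had 46 and 65, giving 188 C1q-low and 149 C1q-high members in all. Few members were near the division. Across the libraries 1 to 3 members lay between 20 and 30 per 10000 and 1 to 4 between 30 and 40. The values closest to the division were 27.8 and 36.9 in Baseline 1, 29.5 and 32.4 in Infarct 1, 22.2 and 38.1 in Infarct 2, and 27.3 and 34.3 in Infarct 3.

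Cd79a, a gene of the rule, was found in most C1q-low members. A Cd79a UMI was present in 93.7% of them in Baseline 1 and in 83.3%, 64.7% and 89.1% in Infarct 1, 2 and 3, against 0.267%, 0.184%, 0.130% and 0.310% of the remainder. Infarct 2, with the fewest members, was lowest. The rule fixes these shares, since a cell of the remainder has at most 1 of the 5 genes, so they describe the members and say nothing of their identity. The B cell label was not right for a small subset. Of the C1q-low members, 17 (4 in Baseline 1, 5 in Infarct 1, 6 in Infarct 2 and 2 in Infarct 3) had neither Cd79a nor Ms4a1 and entered mostly through Ly6d and Ighd. Of these 17 cells, 10 had Siglech, 10 had Ccr9, 10 had Cox6a2 and 8 had Klk1, all plasmacytoid dendritic cell genes, and they held 246 of the 248 Siglech UMIs of the C1q-low members. Pax5, the master regulator of B cell identity, was found in 1 of the 17, Cd79b in 5 and Igkc in 3. The 171 C1q-low members that did have Cd79a or Ms4a1 carried Cd79b in 157 cells, Igkc in 165, Pax5 in 126 and Siglech in 2. The subset without Cd79a and Ms4a1 is therefore not called B cells below, and results that rest on it are given with and without it. The depths and the sums of counts per cell are exceptions, since they used all C1q-low members. Siglech was also found in 5 of the 149 C1q-high members, with 51 UMIs.

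The libraries were similar in size and depth. They held 10144 to 10804 barcodes, of which 10117 to 10782 were kept, and totals of 71093963 to 97944428 UMIs, with the fewest in Baseline 1. Median UMIs per cell were 6398.5 in Baseline 1 and 8469.5 to 8556.5 in the infarct libraries. Pairs of libraries shared 26 to 34 barcodes, and no barcode was a member in 2 libraries.

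Members were a small share of each sort. They made up 1.21% of cells in Baseline 1 (exact 95% binomial interval 1.01 to 1.44%) and 0.596%, 0.371% and 1.10% in Infarct 1, 2 and 3, a mean of 0.688% ± 0.372 (SD, n = 3 libraries). C1q-low members with Cd79a or Ms4a1 were 0.889% of cells at baseline and 0.240%, 0.102% and 0.435% in the infarct libraries. All 3 infarct libraries lay below Baseline 1 on both measures, but for all members Infarct 3 lay within the baseline interval. With 1 baseline library there is no test, the intervals cover counting error only, and a share of cells that passed an EGFP gate is not a density of B cells in the heart. A smaller share of B cells and a larger share of other EGFP+ cells cannot be told apart.

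C1q-high cells were a larger part of the B cell set after infarction. They were 23.4% of members in Baseline 1 (interval 16.3 to 31.8%) and 51.6%, 57.5% and 58.6% in Infarct 1, 2 and 3 (mean 55.9% ± 3.74, SD, n = 3). Among the remainder, C1q-high cells were 65.7% at baseline and 80.9% ± 4.63 (SD, n = 3) after infarction, so the background share of C1q-high cells moved in the same direction. Since C1q divides the members, these shares are descriptions.

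C1q-high members were also large. Their median depth was 9253 UMIs in Baseline 1, where C1q-low members had 3390, C1q-high cells of the remainder had 6601, and the sum of those medians was 9991. In Infarct 1 the C1q-high members had a median of 13175 UMIs against a sum of 13121 from 4489.5 and 8631.5. In Infarct 3 they had 11349 against a sum of 12432.5 from 3772 and 8660.5. In Infarct 2, with 17 C1q-low members of median 8042 UMIs, they had 11126 against a sum of 16590. The depth of a C1q-high member was thus close to that of a C1q-low member and a C1q-high cell added together in every library but Infarct 2. The C1q-low members were not all poor in macrophage RNA, however. In Infarct 2, 10 of those with Cd79a or Ms4a1 had at least 50 macrophage-gene UMIs per 10000, at a median depth of 8709 UMIs, and 1 had fewer. Over the infarct libraries the numbers were 50 and 30, at medians of 8286 and 2782.5 UMIs. The sums can thus include macrophage RNA from both sides.

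**Figure D2:**
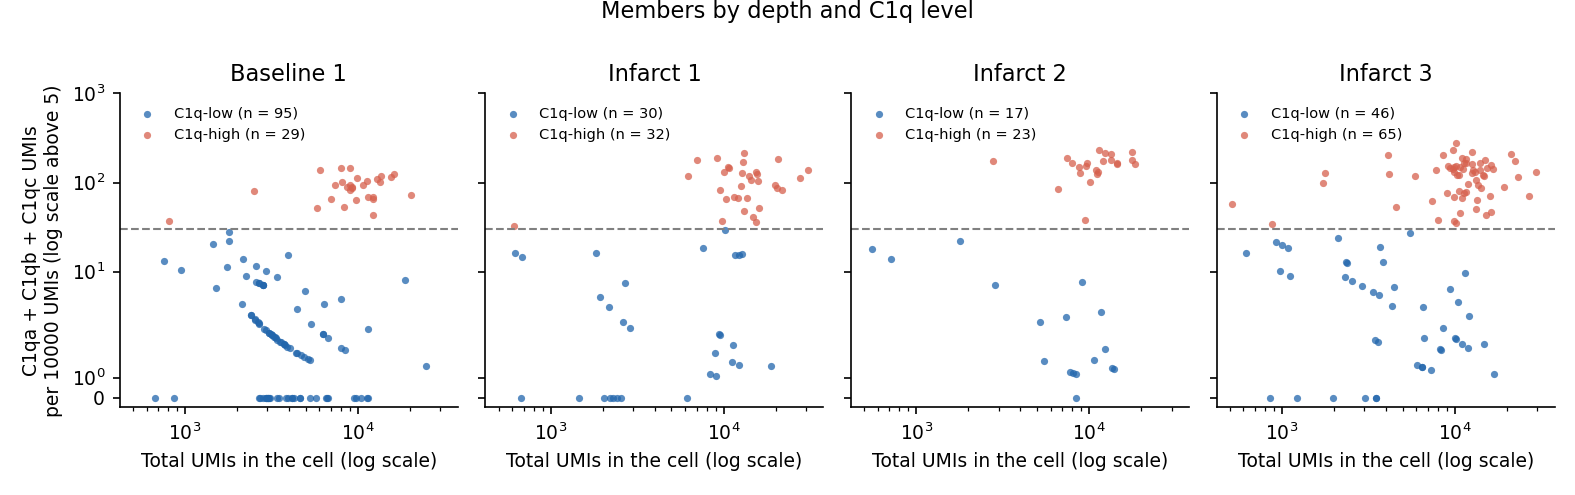
Each point is a member of the B cell set, plotted by its total UMIs (horizontal axis) and its C1qa, C1qb and C1qc UMIs per 10000 (vertical axis), with 1 panel per library and a dashed line at 30 per 10000. Few points lie near the line, and the C1q-high members sit to the right of the C1q-low members, at median depths of 9253 against 3390 UMIs in Baseline 1 and 11349 against 3772 in Infarct 3.

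Doublet scores from Scrublet gave a divided picture. Its automatic threshold marked 2.22% of cells in Baseline 1 and 0%, 0% and 0.00988% in the infarct libraries, so the automatic calls did not work there and cells were ranked by score instead. When the 8.10 to 8.63% of cells with the highest scores in each library were taken, they included 25 of 29 C1q-high members in Baseline 1 (86.2%) but 9 of 32 in Infarct 1 (28.1%), 1 of 23 in Infarct 2 (4.35%) and 16 of 65 in Infarct 3 (24.6%). Of the remainder, 7.95% were included at baseline and 8.31% on average after infarction. Once these cells were removed, C1q-high cells were 4.49% of the members left in Baseline 1 and 44.2%, 56.4% and 52.7% in Infarct 1, 2 and 3.

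C1q-low members were next compared with the remainder, to describe what the sort held under these markers. The comparison used Infarct 1 and Infarct 3, the infarct libraries with at least 20 C1q-low members, with UMI counts summed per library and the library as a block (edgeR quasi-likelihood test, called at a p of 0.01 after Benjamini-Hochberg adjustment across every gene tested). The 5 markers and the C1q genes chose the cells and were not tested. Other genes of the same cells are not independent of them, so the values below describe the size of the differences. With 2 libraries and a block, few residual degrees of freedom were left. The SE and adjusted p values thus rest mostly on dispersion shared across genes and do not measure the spread of a gene between libraries. Levels are UMI counts scaled to the same library total (CPM) and differences are log2 fold changes ± SE. Of 13159 genes, 349 were higher in C1q-low members (2.65%) and 466 were lower (3.54%), with a median over all genes of -0.23.

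Antigen receptor genes led the difference. Of the 23 genes listed for the B cell receptor complex and its signalling, 11 were higher and 2 lower, with a list median of 0.49. Igkc, the kappa constant region, was at 3230, 2127 and 3897 CPM in the C1q-low members of Infarct 1, 2 and 3 and at 1.57, 0.62 and 3.05 CPM in the remainder, a difference of 10.47 ± 0.21. The sets were far apart in every library. Ighm, the mu heavy chain, was at 1355, 998 and 1831 CPM against 153, 184 and 178 CPM (3.09 ± 0.16, adjusted p = 4.79e-81), so the remainder was not free of Ighm reads. Cd79b, the partner of Cd79a, was at 621, 270 and 844 CPM against 23.1, 28.1 and 30.8 CPM (4.59 ± 0.18, adjusted p = 4.85e-130). The inhibitory receptor Cd22 was higher by 3.32 ± 0.34. Of the 12 constant region genes listed, 5 had enough counts to be tested and all 5 were higher. The lower genes of the receptor list were Cd72 (-1.88 ± 0.20), a B cell co-receptor whose RNA was at 473, 683 and 549 CPM in the remainder, and Cd81.

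Transcription factors of the lineage followed. Of 17 listed, 10 were higher and 1 lower, with a median of 1.49. Pax5 was at 157, 65.4 and 268 CPM in the C1q-low members and under 0.1 CPM in the remainder of every library (11.58 ± 0.85, adjusted p = 1.12e-39). The co-activator Pou2af1 (11.24 ± 1.15), the PU.1 relative Spib (5.79 ± 0.81) and the repressor Bach2 (2.63 ± 0.34) were also higher. Irf8, which B cells share with dendritic cells and macrophages, was higher by only 0.80 ± 0.17 (adjusted p = 7.62e-05), and Spi1, encoding PU.1, was lower by 0.73 (log2 -0.73 ± 0.17). Among genes of at least 100 CPM in the higher set that were higher in all 3 infarct libraries, the 10 largest differences also included Fcer2a (CD23; 11.24 ± 0.99), Fcmr, the Fc receptor for IgM (11.20 ± 0.75), Mzb1, a chaperone of antibody assembly (8.92 ± 0.57), and the lymphocyte GTPases Gimap1 (8.85 ± 0.84) and Gimap6 (8.001 ± 0.53).

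Trafficking receptors were mostly higher, and other genes of B cell position and help in part. Of 7 tested follicular and marginal zone genes, 3 were higher (Cd55, Cr2 and Fcer2a), while 0 of 8 tested B1 and innate-like genes were higher and 2, Cd9 and Myof, were lower. Of 16 trafficking receptors, 10 were higher and 2 lower, with a median of 1.24. They included the lymph node homing receptors Ccr7 (3.71 ± 0.31) and Cxcr5 (8.15 ± 1.06), the egress receptor S1pr1 (1.76 ± 0.27) and Cxcr4 (0.68 ± 0.18, adjusted p = 0.00243). Of 12 survival and help genes, 3 were higher and 1, Bcl2l1, was lower, with a median of -0.16. The BAFF receptor Tnfrsf13c (7.85 ± 1.02) and the survival factor Bcl2 (1.48 ± 0.32) were higher, as was Ltb, encoding lymphotoxin beta (4.57 ± 0.25). Of 14 tested cytokines and chemokines, Ltb was the only one higher and 5 were lower. Mki67, a marker of cycling cells, was at 0, 0 and 8.23 CPM against 38.1, 40.4 and 58.3 CPM (-3.56 ± 0.67, adjusted p = 3.83e-06). It was found in 2 of the 93 C1q-low infarct members, so the value rests on few counts. Top2a, another such marker, was found in 3 of the 93. Of the 120 C1q-high infarct members, 11 had Mki67.

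MHC class II genes divided by their role. Of 11 tested, 5 were higher and 2 lower. The higher ones were H2-Ob (4.36 ± 0.41), H2-Oa (3.53 ± 0.34), H2-DMb2 (3.72 ± 0.29) and H2-Eb2 (3.98 ± 0.88), and the class II transactivator Ciita (0.90 ± 0.22); H2-Oa and H2-Ob form H2-O, a modulator of peptide loading known from B cells. The classical chains H2-Ab1 (-0.49 ± 0.14, adjusted p = 0.00793) and H2-Eb1 (-0.61 ± 0.14, adjusted p = 0.000495) were lower, and the invariant chain Cd74 did not pass the test (-0.08 ± 0.14, adjusted p = 0.893), with 9965, 4671 and 10256 CPM in C1q-low members and 10074, 8676 and 8926 CPM in the remainder. When Cd79a or Ms4a1 was required, 5 of these genes were higher and 1 lower.

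Macrophage genes were lower in C1q-low members but were not absent. Of 19 listed genes, 0 were higher and 18 lower, with a median of -1.53. Apoe was at 6455, 14062 and 5696 CPM against 27431, 39561 and 34919 CPM (-2.52 ± 0.14), and Lyz2 was lower by 1.12 (log2 -1.12 ± 0.14). Among genes of at least 100 CPM in the remainder that were lower in all 3 infarct libraries, the smallest values were those of the macrophage receptor Fcrls (-4.87 ± 0.30), the chemokines Ccl5 (-4.60 ± 0.54), Cxcl10 (-4.53 ± 0.55), Ccl12 (-4.22 ± 0.33), Ccl8 (-3.81 ± 0.38), Ccl3 (-3.62 ± 0.28) and Ccl4 (-3.01 ± 0.20), and Olfml3, Serpinb6a and Wwp1. Since low C1q chose these cells, lower macrophage transcripts are part of the choice. Relative to C1q-high cells of the remainder, the median macrophage gene of the list was at 10.7% in Baseline 1 and at 36.5%, 50.5% and 33.6% in Infarct 1, 2 and 3, so macrophage RNA within the C1q-low members was itself higher in each infarct library.

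Genes of other cell types moved in part with the subset described above. Of 6 plasmacytoid dendritic genes 5 were higher, Siglech at 347, 875 and 61.7 CPM and Klk1 at 129, 254 and 74.1 CPM among them, and 0 were higher and 1 lower once Cd79a or Ms4a1 was required. Of 4 monocyte genes, 3 were higher with and without that requirement. They were Ly6c2 (1.62 ± 0.20), Plac8 (2.07 ± 0.15), which B cells also express, and Chil3 (1.52 ± 0.20). Ly6c2 and Chil3 were nearly absent from the B cells with little macrophage RNA, a set of 74 baseline and 30 infarct cells defined below. There Ly6c2 had 1 UMI at baseline and 0 after infarction, and Chil3 had 0 and 1. Plac8 had 114 and 92 UMIs in the same cells. The higher Ly6c2 and Chil3 levels thus rested on other C1q-low members. The interferon-inducible surface antigen Ly6a was higher by 1.92 ± 0.18 (adjusted p = 8.57e-23), whereas 5 of the 11 interferon response genes were lower, Isg15 and Irf7 among them. For T and NK cells, 2 of 8 genes could be tested and 1, Cd2, was higher; it is also found on mouse B cells.

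**Figure D3:**
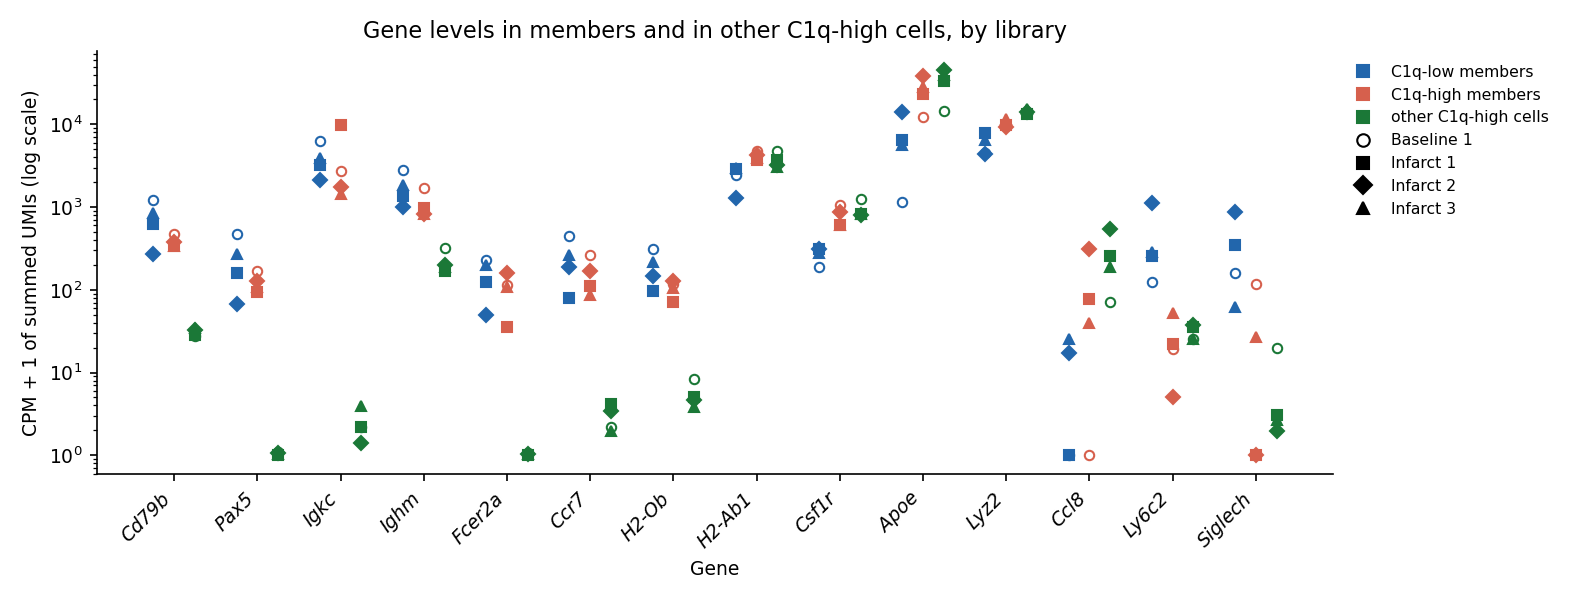
Level of 14 genes in CPM plus 1 (log axis) in C1q-low members, C1q-high members and C1q-high cells of the remainder, with 1 point per library and Baseline 1 drawn open. Cd79b, Pax5 and Igkc are high in both member sets and low in the remainder, while Csf1r and Apoe are as high in C1q-high members as in other C1q-high cells or nearly so and lowest in C1q-low members. In C1q-high members Siglech had 0 UMIs in Infarct 1 and Infarct 2, but 32 in Baseline 1 and 19 in Infarct 3.

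Csf1r, whose promoter drives the reporter of the sort, was detected in part of the B cells. Its level in C1q-low members was 188 CPM in Baseline 1 (exact 95% Poisson interval 148 to 235) and 313, 311 and 280 CPM in the infarct libraries, against 1048 CPM and 739, 753 and 778 CPM in the remainder (infarct log2 -1.53 ± 0.18, adjusted p = 4.95e-16). Of C1q-low members with Cd79a or Ms4a1, a Csf1r UMI was found in 25 of 91 at baseline (27.5%) and in 48.0%, 72.7% and 43.2% in the infarct libraries. Thinned to 1500 UMIs per cell, the shares were 9.20% and 13.0%, 40.0% and 27.8%, and those of C1q-high cells of the remainder were 81.3% and 67.8%, 67.0% and 69.1%. For comparison, cells of the remainder with under 30 C1q UMIs per 10000 and at least 4 of 7 fibroblast and mural genes were taken, a choice made after the values were seen. Infarct 1 had 28 such cells, with a median of 18188 UMIs, and Csf1r was found in 3 of them (10.7%, exact 95% binomial interval 2.27 to 28.2%, 18.5 CPM). The other libraries had 3 to 5 such cells, too few to set a share.

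Csf1r counts went with other macrophage RNA. The C1q-low members with Cd79a or Ms4a1 were divided at 50 UMIs per 10000 of the macrophage list without Csf1r, a level chosen after the values were seen. Below it, Csf1r was found in 10 of 74 cells at baseline (13.5%, interval 6.68 to 23.5%, 43.2 CPM) and in 1 of 30 infarct cells (3.33%, interval 0.0844 to 17.2%, 9.98 CPM). At or above it, Csf1r was found in 15 of 17 baseline cells (88.2%, 439 CPM) and in 38 of 50 infarct cells (76.0%, 384 CPM). The cells below the level were the shallower ones, with median depths of 3090 against 6683 UMIs at baseline and 2782.5 against 8286 UMIs after infarction. B cells with little macrophage RNA thus had little Csf1r. The share in those of the infarct libraries lay below that of the far deeper fibroblast-marked cells, with overlapping intervals. At baseline their level of 43.2 CPM (interval 21.5 to 77.2) lay above the 18.5 CPM of the fibroblast-marked cells of Infarct 1. It did not lie above that of the fibroblast-marked cells of Baseline 1 itself, at 43.7 CPM. Those were only 3 cells, 1 of them with Csf1r, so no difference from them can be read at baseline. Whether these counts came from free RNA was not tested. In the infarct libraries 1 UMI was all that was counted in 30 such cells, of which 12 came from Infarct 1, 1 from Infarct 2 and 17 from Infarct 3. What let these cells pass the EGFP gate was not tested.

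**Figure D4:**
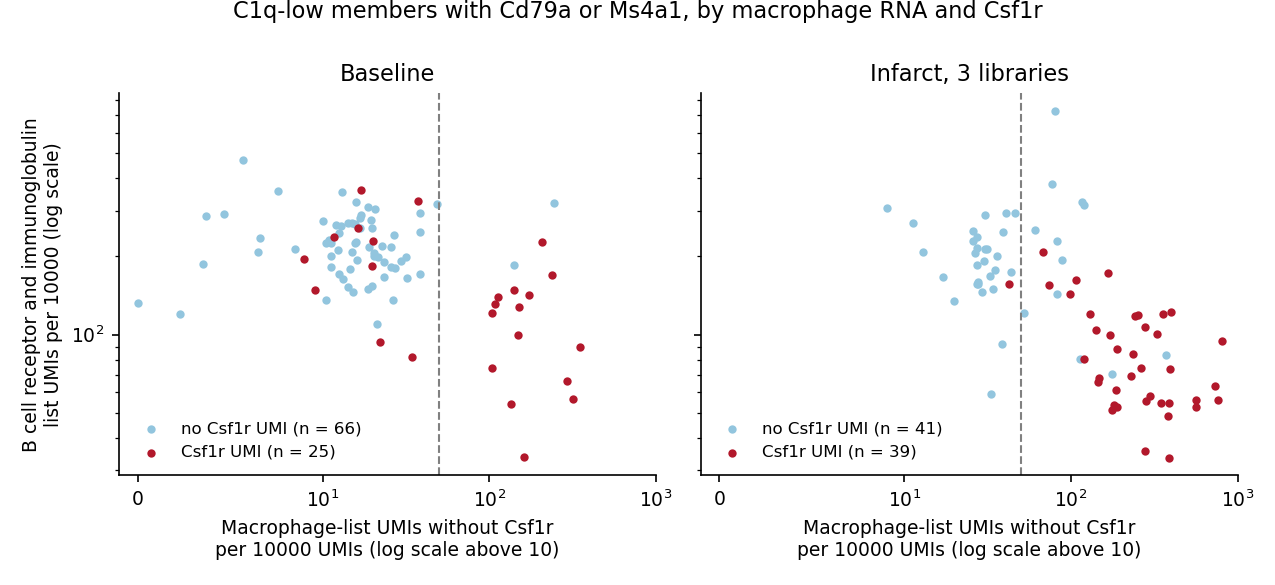
C1q-low members with Cd79a or Ms4a1, plotted by UMIs of the macrophage list without Csf1r per 10000 (horizontal axis, dashed line at 50) and by UMIs of the B cell receptor and immunoglobulin genes per 10000 (vertical axis), coloured by whether a Csf1r UMI was found. Cells with Csf1r (25 at baseline, 39 after infarction) lie mostly to the right of the line, where 15 of 17 baseline and 38 of 50 infarct cells have it.

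C1q-high members were then compared with C1q-low members of the same hearts, again in Infarct 1 and Infarct 3. Of 4893 genes tested, 151 were higher in C1q-high members (3.09%) and 97 were lower (1.98%), with a median over all genes of -0.01. Of the 19 macrophage genes 14 were higher and 0 lower, with a median of 1.24. Ms4a7, a macrophage relative of CD20, was at 2121, 3066 and 2166 CPM in the C1q-high and 286, 434 and 428 CPM in the C1q-low members of Infarct 1, 2 and 3 (2.66 ± 0.17, adjusted p = 1.19e-53). Apoe was higher by 2.15 ± 0.06, Fcrls by 3.98 ± 0.39 and the chemokines Ccl12, Ccl3 and Ccl4 by 3.25 ± 0.43, 3.24 ± 0.36 and 2.92 ± 0.23. Csf1r was at 612, 860 and 601 CPM against 313, 311 and 280 CPM (1.11 ± 0.22, adjusted p = 2.12e-05). These genes follow the C1q genes that divided the members.

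B cell genes were lower in C1q-high members in part. Of 22 tested receptor and signalling genes, 1 (Cd72) was higher and 4 were lower in C1q-high members, with a median of -0.50. Of 15 transcription factors, 3 were lower, and of 5 constant region genes 3 were lower. Cd79b was at 338, 372 and 340 CPM against 621, 270 and 844 CPM (-1.03 ± 0.20, adjusted p = 2.33e-05), with Infarct 2, which did not enter the fit, in the opposite order. Ighm was lower by 0.75 (log2 -0.75 ± 0.15, adjusted p = 5.20e-05) and lower in each of 3 libraries. Igkc did not pass the test (0.15 ± 0.11, adjusted p = 0.488), and its SE was 1.23 by the DESeq2 Wald test. The Igkc value was decided by 1 C1q-high member of Infarct 1, described below with its Igha counts. Without that cell Igkc was at 1502, 1757 and 1424 CPM in C1q-high members against 3230, 2127 and 3897 CPM, and was lower (-1.21 ± 0.12, adjusted p = 3.13e-20). Cd22 did not pass either (-0.99 ± 0.32, adjusted p = 0.0261). Both classical class II chains were higher, H2-Ab1 by 0.45 ± 0.11 and H2-Eb1 by 0.62 ± 0.11, and H2-Oa was lower (-1.70 ± 0.33).

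Among genes of at least 100 CPM in C1q-low members that were lower in C1q-high members in all 3 infarct libraries, those with the lowest values were mostly not B cell genes. Klk1 had 0 UMIs in the C1q-high members of all 3 infarct libraries and 72 in the C1q-low members, at least 62.9-fold lower when 3 counts over the group are taken as the floor. Siglech (-3.26 ± 0.38), Atp1b1 (-3.95 ± 0.50), Vcan (-3.82 ± 0.46), Hp (-2.75 ± 0.32), Gsr (-2.62 ± 0.33) and Slpi (-2.18 ± 0.36) followed. So did Ly6c2 (-2.79 ± 0.31), Chil3 (-2.62 ± 0.31) and Plac8 (-2.25 ± 0.18), which are genes of the monocyte list. When Cd79a or Ms4a1 was required, 73 genes were higher and 35 lower, 0 plasmacytoid dendritic genes and 3 monocyte genes were among the lower ones.

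Set against C1q-high cells of the remainder, C1q-high members had B cell genes at high levels and macrophage genes at slightly lower levels. This comparison used all 3 infarct libraries. Of 12943 genes, 338 were higher in the members (2.61%) and 165 were lower (1.27%), with a median over all genes of -0.06. Among them were 11 of 23 receptor and signalling genes, 11 of 17 transcription factors, 8 of 16 trafficking receptors and 6 of 11 class II genes that were higher. Pax5 was at 92.7, 128 and 108 CPM against 0, 0.0507 and 0.0415 CPM (11.58 ± 0.51, adjusted p = 1.89e-111). Fcer2a was at 34.8, 160 and 108 CPM (11.62 ± 0.56, adjusted p = 4.90e-92), Cd79b at 338, 372 and 340 CPM against 27.0, 31.6 and 33.8 CPM (3.45 ± 0.13, adjusted p = 5.06e-154), Ltb differed by 5.87 ± 0.21 and Ccr7 by 5.83 ± 0.28. Cd74 was higher by 0.33 ± 0.06 (adjusted p = 3.47e-06).

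Macrophage genes were lower in C1q-high members than in other C1q-high cells, though by small amounts. Of 19 listed, 15 were lower and 0 higher, with a median of -0.47. Apoe differed by -0.47 ± 0.05 and Lyz2 by -0.54 ± 0.06. Csf1r was at 612, 860 and 601 CPM against 824, 811 and 834 CPM (-0.34 ± 0.09, adjusted p = 0.00996), with Infarct 2 in the opposite order. Among genes of at least 100 CPM that were lower in all 3 libraries, the lowest value was that of the chemokine Ccl8, at 76.5, 312 and 39.0 CPM against 255, 547 and 185 CPM (-1.55 ± 0.14, adjusted p = 9.21e-28), followed by the TAM receptor ligand Gas6 (-1.31 ± 0.19), Fabp5 (-1.15 ± 0.11), F13a1 (-1.07 ± 0.16), Hmox1 (-1.03 ± 0.14), Spp1 (-1.004 ± 0.09), Pf4 (-0.98 ± 0.10), Fcrls (-0.94 ± 0.10), Gpnmb (-0.93 ± 0.14) and Mt1 (-0.93 ± 0.12).

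Counts per cell, rather than shares of RNA, were close to additive for some gene lists and fell short for others. Part of the C1q-low members held macrophage RNA themselves, so the sums below can include it from both sides. The mean Cd79a count of a C1q-high member was 8.21 in Baseline 1 and 7.47, 6.04 and 7.92 in Infarct 1, 2 and 3, against 7.75 and 6.63, 4.53 and 9.04 in a C1q-low member. The mean Csf1r count was 10.1 and 8.25, 9.35 and 6.88, against 8.72 and 7.17, 7.11 and 7.22 in a C1q-high cell of the remainder. The ratio of a C1q-high member to the sum of a C1q-low member and a C1q-high cell of the remainder was 0.884, 1.00, 0.860 and 0.888 for the receptor and signalling list, 0.895, 0.937, 0.728 and 0.840 for the macrophage list and 1.04, 0.998, 1.25 and 1.05 for the class II list (Baseline 1, then Infarct 1, 2 and 3). It was 0.986, 0.963, 0.666 and 0.784 for the transcription factors and 0.876, 0.819, 0.613 and 0.799 for the trafficking receptors, with Infarct 2 the lowest of the 4 on both. The monocyte list was further below the sum than these lists, at 0.542, 0.488, 0.140 and 0.558. The plasmacytoid dendritic list was at 1.04, 0.476, 0.257 and 0.780. These sums used all C1q-low members, including those without Cd79a and Ms4a1, which were 6 of 17 in Infarct 2. They were not taken without that subset, so its part in the low values is not known. The constant region genes were at 0.981, 5.63, 0.914 and 0.805, the value of Infarct 1 being that of the library with the Igha-rich cell described below. Whether these barcodes held 1 cell or more was not tested beyond the depths, doublet scores and sums given here.

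Light chains described the receptor without use of the rule. Of 296 members with at least 5 light chain UMIs, Igkc gave more than the 3 lambda genes together in 258 (87.2%, interval 82.8 to 90.8%), and the median kappa share was 81.3%. The share with a kappa majority was 93.8% in Baseline 1 (105 of 112) and 87.0%, 76.5% and 83.3% in Infarct 1, 2 and 3. A kappa share under 10% was found in 22 members. Light chains add up to 10824 Igkc and 2427 lambda UMIs, and Iglc2 and Iglc3 are near-identical copies whose reads can be divided between them or left uncounted. Since a B cell uses 1 light chain, the 189 members with a kappa share between 10 and 90% held counts of both kinds, and the part of free RNA in this was not tested; Igkc was found in 0.289 to 1.25% of C1q-high cells of the remainder.

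Heavy chain constant genes could be read in part. Ighm was found in 325 of 337 members and Ighd, itself a gene of the rule, in 275, though an Ighm UMI was also present in 53.5 to 71.4% of C1q-high cells of the remainder. Since the rule itself favours cells with Ighd and Ighm is common in the remainder, the share of unswitched cells was not read from these counts. By a count of at least 3 UMIs of Ighg1, Ighg2b, Ighg2c, Ighg3, Igha and Ighe that exceeded Ighm and Ighd together, 7 members were class-switched, 4 in Baseline 1, 2 in Infarct 1, 1 in Infarct 2 and 0 in Infarct 3. A single C1q-high member of Infarct 1, with 21899 UMIs, held 3653 Igkc, 764 Igha and 624 Jchain UMIs, as antibody-secreting cells do. This cell alone placed Igha and Jchain among the higher genes of C1q-high members over other C1q-high cells (1773, 0 and 1.34 CPM of Igha in Infarct 1, 2 and 3) and raised Igkc in Infarct 1 from 1502 to 9894 CPM. Heavy chain variable genes were diverse where they could be read: 39 of 185 Ighv genes had a UMI in Baseline 1, and 10, 10 and 23 in the infarct libraries. The gene seen with at least 2 UMIs in most members was Ighv1-26, in 3 baseline members, and in each infarct library no Ighv gene was seen so in more than 1.

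C1q-low members of the infarct libraries differed from those of Baseline 1 in both directions. With 1 baseline library there is no test, and a gene is counted here when it differed at least 2-fold, with all 3 infarct libraries on the same side of baseline and a mean of at least 100 CPM. Of 1615 genes, 163 were higher after infarction (10.1%) and 102 were lower (6.32%), with a median log2 ratio over all genes of 0.10. The higher genes included 15 of 18 macrophage genes at that level and 4 of 4 monocyte genes. Ctsd, a lysosomal protease, was at 49.5 CPM at baseline and 840, 1374 and 1231 CPM after infarction (log2 4.51), and Ms4a7 at 14.9 CPM and 286, 434 and 428 CPM (4.60). Basp1 (4.04), C3ar1 (3.85), Fabp5 (4.34), Gpnmb (5.97) and Spp1 (6.95) followed. Klk1 also ranked there (5.46), but it was found in 0 of the 171 C1q-low members with Cd79a or Ms4a1. Several of these rested on single cells. The highest ratio, 7.96 for the acute phase gene Saa3, came from 2010, 16.4 and 560 CPM, and 1 cell held 87.7% of its UMIs in Infarct 1 and 89.0% in Infarct 3. For Spp1, 1 cell held 88.0%, 91.2% and 63.3% of the UMIs in Infarct 1, 2 and 3. For Gpnmb, 1 cell held 100%, 100% and 43.1%, and for Fabp5 64.6%, 91.6% and 68.0%. Arg1, with 0 UMIs at baseline, was at least 28.0-fold higher by a floor of 3 counts.

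B cell genes lay lower in the infarct libraries. Of the receptor and signalling list 6 of 14 genes were lower and 0 higher, of transcription factors 4 of 12 were lower, and of follicular and marginal zone genes 2 of 3. Of the early activation list, which holds Cd69, 3 of 11 were lower and 0 higher. Its median was -0.08, against 0.10 over all genes. Igkc was at 6303 CPM in Baseline 1 (interval 6061 to 6553) and 3230, 2127 and 3897 CPM in Infarct 1, 2 and 3 (log2 -1.03). With a C1q division of 100 the Igkc ratio was 0.0596, since the Igha-rich cell of Infarct 1 then counted as C1q-low, and without that cell it was -1.19. Cd79b was at 1230 CPM against 621, 270 and 844 CPM (-1.09) and Pax5 at 475 CPM against 157, 65.4 and 268 CPM (-1.54). The early activation antigen Cd69 was at 933 CPM (interval 841 to 1032) against 168, 262 and 391 CPM (-1.77), the complement regulator Cd55 at 653 CPM against 224, 89.99 and 280 CPM (-1.72), the inhibitory receptor Btla at 270 CPM against 78.4, 24.5 and 74.1 CPM (-2.17), the integrin chain Itga4 at 789 CPM against 286, 188 and 387 CPM (-1.46) and the transcription factor Ets1 at 807 CPM against 246, 196 and 292 CPM (-1.72). These were spread over cells: Cd69 was found in 79 of 95 baseline members, with 5.57% of its UMIs in the highest cell, and Btla in 58. Ripor2 (-2.15), Pgap1 (-2.13), Lars2 (-1.82) and the linker histone gene Hist1h1e, at 411 CPM against 50.4, 24.5 and 49.4 CPM (-3.28), were also among the lowest. Retnla, 173 UMIs at baseline and 0 after infarction, was at least 77.6-fold lower, but 91.9% of its UMIs were in 1 cell.

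Part of this moved with macrophage RNA and part did not. In the C1q-low members with Cd79a or Ms4a1 and under 50 macrophage UMIs per 10000, 74 at baseline and 30 over the infarct libraries, Igkc was at 9285 CPM against 8905 CPM (log2 -0.06), Cd79b differed by -0.08 and Ighm by -0.16. In these same cells Cd69 was at 1343 CPM (interval 1201 to 1498) against 686 CPM (529 to 874; -0.97), Btla at 395 CPM against 137 CPM (-1.52), Itga4 at 844 CPM against 369 CPM (-1.19), Cd55 differed by -0.80, Ets1 by -0.82, Spib by -1.81, Ripor2 by -2.14, Pgap1 by -2.29 and Hist1h1e by -3.60. The cells of Infarct 1 and Infarct 3 differed in Cd69, at 371 and 848 CPM, and were closer in Btla (169 and 133 CPM) and Itga4 (337 and 382 CPM). Igkc, Cd79b and Ighm thus differed by at most 0.16 on the log2 scale in macrophage-poor B cells, but not all B cell genes were level there. Pax5 was at 682 CPM (interval 582 to 795) against 422 CPM (301 to 575), a log2 ratio of -0.69. Ighd, a gene of the rule, differed by -0.93. The list medians were -0.24 for receptor and signalling genes and -0.40 for transcription factors. For the early activation list the median was -0.80, with values from -1.33 to 0.64, so its genes went both ways. Cd69, Btla, Itga4 and Hist1h1e were lower after infarction in both sets of cells. The intervals cover counting error only, and 1 such cell came from Infarct 2. Gm42418, a transcript that overlaps ribosomal RNA sequence, was at 58562 CPM in C1q-low members of Baseline 1 and 19128, 7698 and 11914 CPM after infarction, and it differed likewise in the remainder (47587 against a mean of 12811 CPM). Hist1h1e and Itga4 were also lower in the remainder (log2 -2.18 and -1.61), whereas Cd69 was at 18.3 CPM there at baseline and at a mean of 29.9 CPM after infarction, the opposite order. The part of preparation or library in these differences cannot be told apart from infarction.

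Ly6a went the other way. It was at 168 CPM in C1q-low members at baseline and 392, 843 and 428 CPM after infarction (log2 1.71), and at 229 CPM (interval 172 to 298) against 728 CPM (566 to 921) in macrophage-poor B cells (1.67). With Cd79a or Ms4a1 required, it was at 164 CPM at baseline and 358, 102 and 338 CPM in Infarct 1, 2 and 3, so Infarct 2, with 11 such cells, lay below baseline. In the remainder Ly6a was at 22.2 CPM and 99.0, 142 and 94.2 CPM. Of the 10 class II genes at 100 CPM, 0 were higher and 1 was lower, with a median of -0.22. The class II chain H2-Aa did not separate the conditions in all C1q-low members (2571 CPM against 3482, 1497 and 3325 CPM) and was at 2898 CPM against 4653 CPM in the macrophage-poor cells (log2 0.68), where Cd74 differed by 0.50 and Plac8 by 1.03. The class II list had a median of 0.46 in these cells and the ribosomal list a median of 0.55, so class II genes did not stand apart there.

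**Figure D5:**
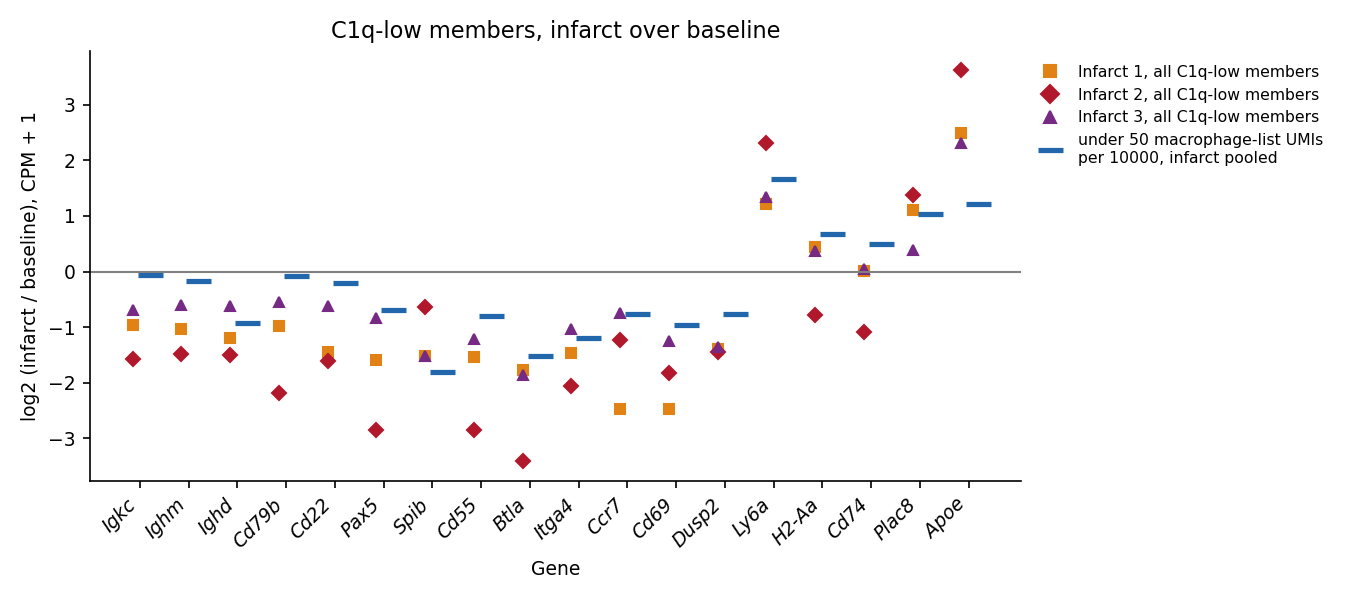
Log2 ratio of the CPM in each infarct library over Baseline 1 for 18 genes in C1q-low members (points), with the pooled ratio in macrophage-poor B cells as a dash; 0 marks equal levels. Igkc and Cd79b lie below 0 in all C1q-low members but near 0 in the macrophage-poor cells (-0.06 and -0.08). Pax5, Cd69, Btla and Itga4 lie below 0 in both, and Ly6a lies above 0 in both.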

How the data were processed

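Single-cell RNA sequencing covered cells of 4 libraries, grouped by their labels as Baseline (1 library) and Infarct (3 libraries). The files hold unnormalized UMI counts as deposited. The authors produced these counts with Cell Ranger and mm10 and kept the barcodes called as cells (version 3.1.0 in the matrix headers, 3.0.1 in the submitters' processing notes). Free RNA in droplets is not removed by that processing, and a barcode can hold more than 1 cell. Everything after the counts was computed here. The cell set, gene lists and divisions were chosen with earlier results of these data known.

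The filter on cells was 500 to 40000 UMIs and more than 200 genes, and members were found by the rule of 2 of 5 markers. Doublets were kept in the main results and were scored with Scrublet (scanpy 1.11.5, Python 3.11.15). Counts were summed per library and cell set and tested with edgeR 4.0.16 (quasi-likelihood, TMM, filterByExpr, library as a block; R 4.3.3) at a Benjamini-Hochberg adjusted p of 0.01; sets under 20 cells in a library were left out, which left 2 libraries for the tests with C1q-low members and 3 for the other. A block left few residual degrees of freedom, so SE and adjusted p values rest mostly on dispersion shared across genes. Both sums of a pair came from the same heart. Their deviations from the set means correlated at 0.10 (C1q-low members against the remainder), 0.17 (C1q-high against C1q-low members) and 0.15 to 0.20 (C1q-high members against other C1q-high cells). DESeq2 1.42.0 was an alternative. For Infarct against Baseline, mitochondrial genes were dropped from the sums and CPM were compared on log2(CPM + 1) with no test; exact 95% binomial and Poisson intervals cover counting error only. Named genes were the 10 highest and 10 lowest past the threshold with the same direction in 3 infarct libraries and at least 100 CPM in the higher set (immunoglobulin variable, sex-linked and mitochondrial genes not ranked), and genes of the lists. Marker positions came from a GRCm38 annotation.

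The tests were tried on simulated data with 200 changed genes. Only genes with enough expected counts in every sum were changed, so the recovery below does not cover genes with low counts. Each gene was given the same mean level in every library, with no difference between hearts added. For C1q-low members against the remainder (12919 genes), 45 of 100 genes changed 2-fold and 98 of 100 changed 4-fold were recovered. For C1q-high against C1q-low members (4560 genes) the numbers were 0 of 100 and 33 of 99, and for C1q-high members against other C1q-high cells (12716 genes) 91 of 100 and 100 of 100.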

Additional observations from a re-analysis of the deposited data

How the results depend on the processing

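Counts of genes past the threshold depended on the processing more than directions did. For C1q-low members against the remainder (349 higher, 466 lower), thinning to 1500 UMIs gave 88 and 263, and the DESeq2 Wald test gave 132 lower. With all 3 infarct libraries, leaving out 1 in turn (Infarct 1 or 3) gave 187 to 243 higher and 278 to 295 lower, the fewest higher without Infarct 3. For C1q-high against C1q-low members (151 higher, 97 lower), the counts were 73 and 35 with Cd79a or Ms4a1 required, 23 and 7 by the DESeq2 Wald test, 100 and 54 with DESeq2 size factors, 70 and 25 without the highest Scrublet scores and 78 and 32 thinned; a C1q division at 10 gave 54 lower and all 3 libraries gave 53 lower, and leaving out Infarct 1 or 3 from these gave 58 to 71 higher and 30 to 43 lower. For C1q-high members against other C1q-high cells (338 higher, 165 lower), a division at 100 gave 165 and 67, thinning 53 and 49 and the DESeq2 Wald test 37 lower, and leaving out each infarct library gave 157 to 285 higher and 57 to 182 lower, the fewest higher without Infarct 3 and the fewest lower without Infarct 1.

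Without the pairing of sums from the same heart (no replicate block), the counts were 205 higher and 156 lower for C1q-low members, 85 and 39 for C1q-high against C1q-low members, and 184 and 6 for C1q-high members against other C1q-high cells.

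The infarct mean share of C1q-high members was 60.8% with Cd79a or Ms4a1 required, 59.7% without cells with a Siglech UMI, 51.1% without the highest Scrublet scores, and 66.0% and 38.7% with divisions at 10 and 100, and it ranged from 54.6% to 58.0% when 1 library was left out. At baseline it was 4.49% without the highest Scrublet scores and 8.87% with the division at 100. The share of members ranged from 0.484% to 0.847% over infarct libraries left out and was 0.947% at baseline without the highest Scrublet scores. For infarct against baseline (163 higher, 102 lower), a minimum of 25 CPM gave 500 and 407 and of 200 CPM gave 84 and 41, and leaving out 1 infarct library gave 139 to 204 higher and 69 to 160 lower, the most lower without Infarct 3. The ratio of Igkc turned from -1.03 to 0.0596 on the log2 scale with the C1q division at 100, where the Igha-rich cell of Infarct 1 (82.7 C1q UMIs per 10000, 3653 Igkc UMIs) counts as C1q-low; without that cell it was -1.19. In C1q-high against C1q-low members Igkc, at 0.15, lay below 0 in 7 of 15 alternatives and ranged from -1.39 to 0.81; it was called in 2, both lower and both without that cell, namely with the cell removed (-1.21) and with 3 or more markers required (-1.39).

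Of the named genes' values under the alternatives, 338 of 340 for C1q-low members, 263 of 278 for C1q-high against C1q-low members and 306 of 319 for the last comparison kept their direction and side of the threshold, and the others kept their direction. For infarct against baseline, 296 of 338 moved by less than the spread between libraries, 41 moved by more and 1, that of Igkc, reversed. The alternatives with all 3 libraries, without Siglech cells, with the Igha-rich cell removed and with macrophage-poor B cells were chosen after seeing the data. A C1q division at 100 could not be fitted for C1q-high against C1q-low members, since 1 library was left, and neither could either comparison with 1 of its 2 libraries left out. The depth of 17 to 46 C1q-low members per infarct library limits the low genes.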
